A study of Homo sapiens with 13 samples.

Results

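Chaetocin at 10 nM was set against F5446 at the same 10 nM, both for 72 h, in HuT78 cells. Every gene of the count table was compared between 4 chaetocin libraries (replicates 1 to 4) and 3 F5446 libraries (replicates 2, 3 and 4), 7 of the 13 libraries of the series. The 2 vehicle libraries (DMSO, replicates 1 and 4) give the background level. The other 4 libraries, from cells given romidepsin at 1 µM, a histone deacetylase inhibitor, are not compared here but entered the filter, the scaling and the fit. HuT78 is an established line of CD4+ T cells from Sézary syndrome, a leukemic cutaneous T cell lymphoma, so each group is a treatment of the same line and not a set of donors. All 3 titles name F5446, although the last digit of the code differs between the treatment tags of these libraries, and the titles were followed. Nothing in the labels says that replicates came from separate cultures, and the spread behind each p-value may therefore be technical.

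Methylation of histone H3 at lysine 9 marks silent chromatin, and SUV39H1 is an enzyme that writes its trimethylated form. Chaetocin is a fungal epidithiodiketopiperazine that inhibits SUV39H1 and also reacts with other proteins, thioredoxin reductase among them. F5446 is known by its code name as a SUV39H1 inhibitor. The comparison asks which transcripts differ between 2 inhibitors of the same enzyme at an equal dose. It is 1 pair of compounds at 1 dose and 1 time, and neither H3 lysine 9 methylation nor enzyme inhibition was measured in these files.

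The 7 libraries held between 19951198 and 30816188 counts, and 17252 of 45744 genes had enough counts to be tested. Levels are CPM, counts scaled to a common size of the normalized library, and they compare libraries for 1 gene, not genes with each other. Libraries numbered 1 and 2 differed from those numbered 3 and 4 in every treatment group, and the fit allowed for these sets of numbers. The split was not clean with chaetocin. There the chi-square per gene between 2 libraries was 169.1 for replicates 3 and 4, above the 61.9 to 134.6 of pairs across the sets. It was 24.5 for chaetocin replicates 1 and 2. With F5446 it was 19.8 for replicates 3 and 4, against 77.5 and 61.5 for their pairs with replicate 2. DMSO had 1 library in each set. Numbers 1 and 2 hold 2 chaetocin libraries and a single F5446 library. Chaetocin replicate 3 stood apart, with 15.4% of its counts from mitochondrially encoded proteins, against 5.03 to 10.4% in the other 6 libraries. The T cell genes CD3E (180.4 to 252.5 CPM with chaetocin, 212.2 to 263.0 CPM with F5446), CD4 and LCK and the Sézary genes GATA3, TOX and KIR3DL2 were present in all 7 libraries. CD28 had at most 1.05 CPM with chaetocin and 0 CPM with F5446, and PLS3, another Sézary marker, at most 0.751 CPM with chaetocin and 0.544 CPM with F5446. Summed markers of fibroblasts (347.3 to 441.4 CPM with chaetocin, 316.5 to 441.2 CPM with F5446), B cells, myeloid, epithelial and natural killer cells overlapped between the compounds. Other sums were 140.1 to 270.6 CPM (myeloid), 163.7 to 190.9 CPM (epithelial) and 216.7 to 321.9 CPM (natural killer) with chaetocin. With F5446 they were 189.6 to 203.9, 190.6 to 212.3 and 209.2 to 243.6 CPM, so the epithelial overlap was narrow. THY1 led the fibroblast sum and AIF1 the myeloid sum. Of 18 fibroblast genes 3, FAP and POSTN among them, had no count in any library. Of 19 myeloid genes 5 had none, CD68 and S100A8 among them. CD14 had 0 CPM with chaetocin and at most 0.332 CPM with F5446.

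Few transcripts separated the compounds. At an adjusted p under 0.05 (edgeR quasi-likelihood test, Benjamini-Hochberg over all tested genes), 5 genes fell with chaetocin relative to F5446, 0.0290% of those tested, and 0 rose. At an unadjusted p under 0.05, 974 genes were found, with 571 lower (3.31% of all tested) and 403 higher (2.34%). All 4 chaetocin libraries lay below all 3 F5446 libraries in 3.11% of genes and above them in 2.28%. With no difference at all, a share of about 0.05 of genes would have an unadjusted p under 0.05. Some genes would also part without overlap between 4 and 3 libraries. The median log2 difference over all genes was -0.01, with 8805 genes below 0 and 8447 above. For the 10076 genes that averaged 5 CPM or more, the 95% confidence interval of the difference lay within a log2 of 1 in either direction for 9788 (97.1%). It lay within 0.5 for 6082 (60.4%), so for the other genes of that level a difference of 0.5 or more was not excluded. With the replicate number itself as a term, 11 genes were called, 10 lower and 1 higher. With no term for the numbers edgeR called 0, and 587 had an unadjusted p under 0.05. Fitted on the 7 compared libraries alone it also called 0, with 885 at an unadjusted p under 0.05 and an adjusted p of 0.494 for STX3, SLFN5, ITGB7 and RNF144A. DESeq2 with the same term as the main fit called 16, of which 1 was higher.

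**Figure D1:**
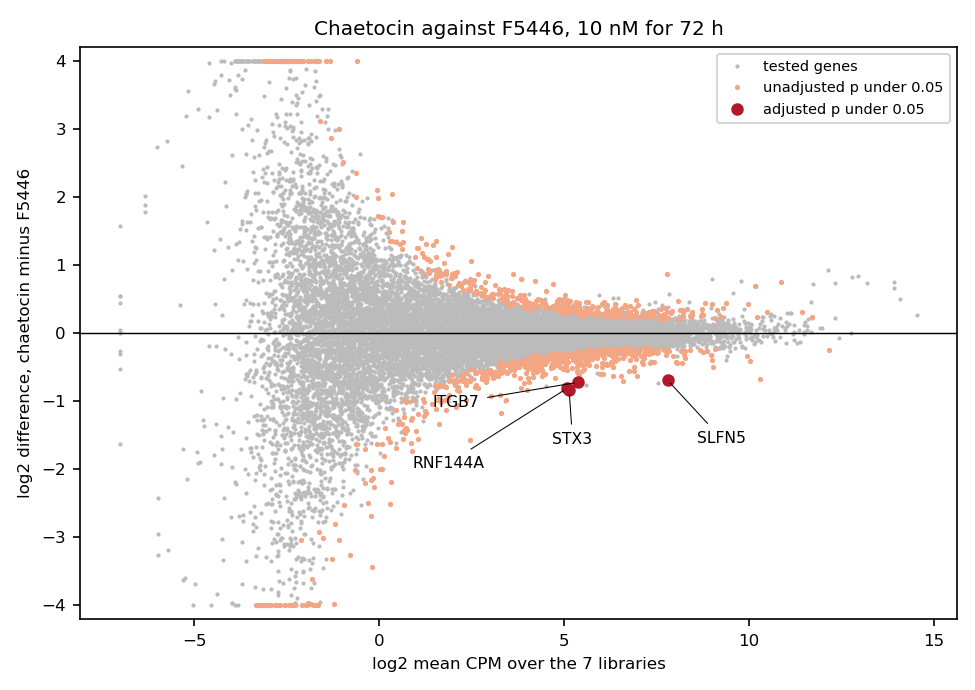
Log2 difference between chaetocin and F5446 (vertical axis, positive where chaetocin is higher) against log2 mean CPM over the 7 libraries (horizontal axis). Each point is a tested gene, except 1 that is not reported here, and differences beyond 4 are drawn at 4. The 4 named genes with an adjusted p under 0.05 lie between -0.69 and -0.84, below the band of other genes at their level.

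STX3, SLFN5, ITGB7 and RNF144A were each expressed 1.62 to 1.79 times as high with F5446 as with chaetocin. In none of the 4 did any chaetocin library reach an F5446 library, and the vehicle mean lay nearer to F5446. In bulk RNA, fewer expressing cells and less RNA per cell cannot be told apart. STX3 encodes syntaxin 3, a membrane SNARE of vesicle fusion. It had 18.7, 20.9, 29.6 and 34.4 CPM in chaetocin replicates 1 to 4, against 43.0, 49.1 and 51.2 CPM in F5446 replicates 2, 3 and 4 and 37.2 and 51.9 CPM in DMSO. Chaetocin replicates 3 and 4 were higher than replicates 1 and 2 for this gene, and the groups did not overlap. The log2 difference was -0.84 (SE 0.13, 95% interval -1.11 to -0.57, edgeR adjusted p = 0.00626).

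SLFN5 is an interferon-inducible Schlafen family gene. It had 183, 194, 136 and 197 CPM with chaetocin, against 280.2, 265 and 309 CPM with F5446 and 319.8 and 329 CPM with DMSO. All 4 chaetocin libraries were low, replicate 3 most of all, and both vehicle libraries were above all F5446 libraries. The log2 difference was -0.69 (SE 0.12, edgeR adjusted p = 0.00794). ITGB7 encodes the integrin beta 7 chain, which pairs with alpha 4 or alpha E in the homing of lymphocytes to mucosa and epithelium. It had 24.8, 35.7, 35.6 and 33.6 CPM with chaetocin, against 52.2, 51.9 and 59.2 CPM with F5446 and 47.4 and 58.8 CPM with DMSO. Chaetocin replicate 1 was the lowest library. The log2 difference was -0.72 (SE 0.13, edgeR adjusted p = 0.0155).

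RNF144A encodes a RING-between-RING ubiquitin ligase of membranes. It had 26.9, 32.3, 18.4 and 27.2 CPM with chaetocin, against 45.2, 40.4 and 47.1 CPM with F5446 and 47.3 and 43.4 CPM with DMSO. The F5446 and vehicle libraries shared nearly the same range, and chaetocin replicate 3 was the lowest library. The log2 difference was -0.81 (SE 0.15, edgeR adjusted p = 0.0201). Each of the 4 differences kept its sign within both sets of replicate numbers: STX3 had -1.13 in numbers 1 and 2 and -0.64 in numbers 3 and 4, and RNF144A had -0.63 and -0.92. The calls rest on few F5446 libraries: without F5446 replicate 2 the edgeR adjusted p was 0.127 for STX3, 0.0703 for SLFN5, 0.238 for ITGB7 and 0.0703 for RNF144A. Without F5446 replicate 4 it was 0.0262 for STX3, 0.279 for SLFN5 and ITGB7 and 0.443 for RNF144A. RNF144A also missed the threshold without F5446 replicate 3 (0.127) and without chaetocin replicate 1 (0.114) or 3 (0.107), and ITGB7 without chaetocin replicate 1 (0.114) or 4 (0.069). Of the wider SNARE and vesicle fusion list, 2 of 41 tested genes were lower at an unadjusted p under 0.05 and 1 was higher, near the shares over all genes (3.31% and 2.34%), with a median of -0.01.

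**Figure D2:**
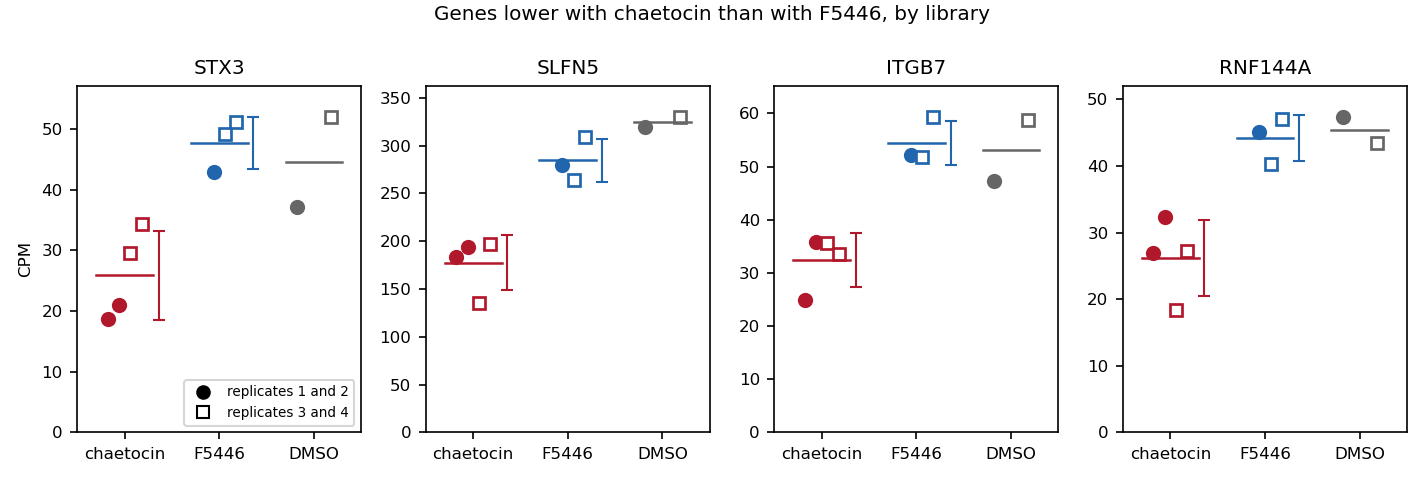
CPM of STX3, SLFN5, ITGB7 and RNF144A in each library, with chaetocin drawn left of F5446, and DMSO last. Filled circles are replicates 1 and 2, open squares replicates 3 and 4, horizontal lines the group mean and bars the SD (not drawn for the 2 DMSO libraries). In each gene every chaetocin library lies below every F5446 library, with 34.4 CPM the highest chaetocin and 43.0 CPM the lowest F5446 value of STX3.

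With the replicate number as a term, 6 further genes were called by edgeR: CDYL2, ASB2, HLA-E, GZMA and OSBPL3, which were lower with chaetocin, and ATF5, which was higher. OSBPL3 is named here after its values were seen. With the same term but without chaetocin replicate 3, the library that stands apart, HLA-E stayed under the threshold (edgeR adjusted p = 0.00159) and TAP1 came under it (0.004), while CDYL2 (0.148), ASB2 (0.073), GZMA (0.124) and ATF5 (0.113) missed it. CDYL2, a chromodomain protein that binds methylated H3 lysine 9, had 11.6, 13.3, 9.07 and 14 CPM with chaetocin, against 18.7, 23.2 and 21.7 CPM with F5446 and 22.6 and 18.9 CPM with DMSO. The groups did not overlap, and the log2 difference was -0.84 (edgeR adjusted p = 0.083, and 0.0402 with the replicate number). ASB2, a substrate adaptor of ubiquitin ligases that is expressed in helper T cells, had 61.5, 79.5, 51.9 and 68.1 CPM with chaetocin, against 103, 96.3 and 100.1 CPM with F5446 and 99.6 and 97.7 CPM with DMSO. The F5446 and vehicle libraries were within a few CPM of each other, and all chaetocin libraries were below them (log2 difference -0.62, edgeR adjusted p = 0.083, and 0.0244 with the replicate number). ATF5, a transcription factor of the stress response, had 279, 269, 384 and 174 CPM with chaetocin, against 141, 198 and 116 CPM with F5446 and 99.4 and 101 CPM with DMSO. Chaetocin replicate 4 lay inside the F5446 range, and both compounds were above the vehicle libraries. Its log2 difference of 0.87 had an edgeR adjusted p of 0.78, and of 0.0141 with the replicate number.

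Genes of class I antigen presentation were mostly lower with chaetocin. Class I molecules, made of an HLA heavy chain and beta 2 microglobulin, carry peptides that the immunoproteasome cuts, TAP imports and ERAP trims. Of 27 tested genes 20 were lower and 7 higher, with a median of -0.22 against -0.01 over all genes. 13 of 27 were lower at an unadjusted p under 0.05 and 0 were higher, where 3.31% and 2.34% of all genes were, and 0 passed the adjusted threshold. 6 did not overlap between the compounds, all with chaetocin below, where 3.11% of all genes lay below without overlap and 2.28% above. The median stood at -0.34 in the fit of numbers 1 and 2 alone and at -0.16 in that of numbers 3 and 4. With each of the 7 libraries left out in turn it lay between -0.34 and -0.19.

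B2M, the common light chain, had 831, 1151, 841 and 1196 CPM with chaetocin, against 1980.0, 1412 and 1365 CPM with F5446 and 1371 and 1238 CPM with DMSO. F5446 replicate 2 was the highest library, and the vehicle libraries lay just above the chaetocin range (log2 difference -0.67, edgeR adjusted p = 0.434). B2M was called with DESeq2, and by edgeR with no filter or without chaetocin replicate 4, but not with the replicate number as a term. HLA-E, a heavy chain that presents signal peptides to natural killer receptors, had 36.5, 59.9, 109 and 91.4 CPM with chaetocin, against 92.3, 140.3 and 148 CPM with F5446 and 73.6 and 134 CPM with DMSO. Its libraries parted by replicate number: numbers 1 and 2 were low in every group, and within each number chaetocin was below F5446. The log2 difference was -0.70 (edgeR adjusted p = 0.125, and 0.0195 with the replicate number).

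HLA-B had 289, 401, 545 and 534 CPM with chaetocin, against 613, 659 and 631 CPM with F5446. Its groups did not overlap, and the F5446 libraries spanned a narrow range (log2 difference -0.50, edgeR adjusted p = 0.419). HLA genes resemble each other, so reads can be split among them in counting. TAP1, which forms the peptide transporter with TAP2, had 255, 239, 241 and 208 CPM with chaetocin, against 348, 286 and 295 CPM with F5446 and 398 and 264 CPM with DMSO. All chaetocin libraries were lower than F5446, and DMSO replicate 4 was between the groups (log2 difference -0.44, edgeR adjusted p = 0.32). The catalytic immunoproteasome subunits PSMB8, PSMB9 and PSMB10 had log2 differences of -0.45, -0.37 and -0.45, and NLRC5, the transactivator of class I genes, had -0.34. For the general chaperones of the same pathway the difference was 0.00 for CANX (95% interval -0.21 to 0.21) and 0.07 for CALR (-0.18 to 0.31). Dedicated members also showed small differences, with 0.00 for PSME1, -0.09 for TAPBP and -0.14 for PSME2. MICA (0.32), TAPBPL (0.18) and HLA-G (0.13) were among the 7 members that were higher. Class II genes had a median of 0.06 over 19 tested genes, of which 0 had an unadjusted p under 0.05 (3.31% of all genes lower, 2.34% higher).

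**Figure D3:**
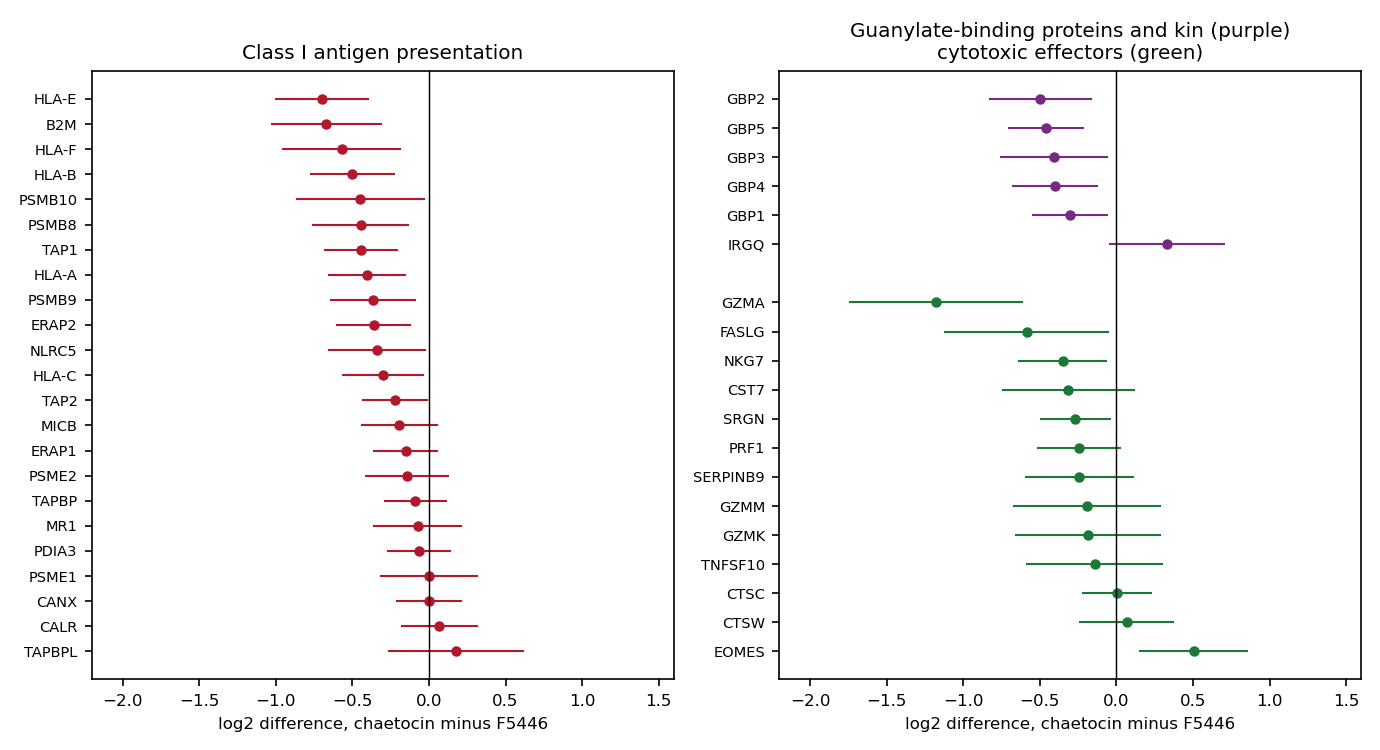
Log2 difference, chaetocin minus F5446 (horizontal axis), of members that averaged 5 CPM or more, with 95% confidence intervals. These are 23 of 27 class I genes (left) and 6 of 8 guanylate-binding protein genes and 13 of 19 cytotoxic genes (right). HLA-E at -0.70 and GZMA at -1.18 head their lists, and CALR and EOMES lie above 0.

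The core of the interferon-stimulated response element, GAAANNGAAA on either strand, was looked for from 250 bases before to 50 bases after each RefSeq gene start (GRCh38.p14), since class I and guanylate-binding genes are textbook targets of interferon. It was in 11 of 23 class I genes matched to that table and in 3 of 5 guanylate-binding protein genes, against 445 of 10857 tested genes (4.10%) and 3.57% of all promoter windows. It was in 2 of 13 cytotoxic genes and 2 of 59 ribosome biogenesis genes. A gene counted if any of its windows held the core. These shares follow from which genes the lists hold and do not depend on the expression values of either compound. The windows of B2M, TAP1 and GBP4, which were lower with chaetocin, and of ATF5, which was higher, are shown 5′ to 3′ on the strand of the gene, with the core in capitals. A match is a description of these letters and not a binding site.
B2M (chr15:44711267-44711566, + strand): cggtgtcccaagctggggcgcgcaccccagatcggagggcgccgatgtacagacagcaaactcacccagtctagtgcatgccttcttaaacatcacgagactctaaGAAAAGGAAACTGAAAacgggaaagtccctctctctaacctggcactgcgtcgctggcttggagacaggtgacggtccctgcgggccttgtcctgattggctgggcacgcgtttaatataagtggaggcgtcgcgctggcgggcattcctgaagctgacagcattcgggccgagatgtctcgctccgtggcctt
TAP1 (chr6:32853655-32853954, - strand): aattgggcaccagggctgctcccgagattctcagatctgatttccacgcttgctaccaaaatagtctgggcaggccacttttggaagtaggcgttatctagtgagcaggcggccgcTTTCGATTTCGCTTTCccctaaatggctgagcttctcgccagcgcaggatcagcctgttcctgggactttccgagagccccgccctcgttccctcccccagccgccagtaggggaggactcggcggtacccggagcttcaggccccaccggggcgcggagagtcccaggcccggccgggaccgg
GBP4 (chr1:89198893-89199192, - strand): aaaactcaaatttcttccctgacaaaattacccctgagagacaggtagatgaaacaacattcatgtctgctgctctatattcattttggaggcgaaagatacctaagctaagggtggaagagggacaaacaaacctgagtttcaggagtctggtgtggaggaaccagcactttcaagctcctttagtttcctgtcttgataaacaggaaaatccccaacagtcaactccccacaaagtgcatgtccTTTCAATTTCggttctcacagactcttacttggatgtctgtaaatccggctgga
ATF5 (chr19:49928656-49928955, + strand): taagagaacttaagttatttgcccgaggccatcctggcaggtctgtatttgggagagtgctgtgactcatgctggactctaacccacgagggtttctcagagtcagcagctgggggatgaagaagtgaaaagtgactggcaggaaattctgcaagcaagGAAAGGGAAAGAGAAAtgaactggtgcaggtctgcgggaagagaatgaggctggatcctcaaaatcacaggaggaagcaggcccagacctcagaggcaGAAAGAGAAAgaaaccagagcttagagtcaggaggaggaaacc
B2M and TAP1 each hold 2 overlapping cores, starting 144 and 138 bases before the start of B2M and 134 and 128 bases before that of TAP1. The ATF5 window shown holds 3 cores. TAP1 has 2 windows in the table and ATF5 has 3, and for each the first listed window with a core is shown. None of the genes shown was called in the main fit, and the part of the core in any difference was not tested. The windows of STX3, ITGB7, RNF144A and HLA-B held 0, and SLFN5 and HLA-E had no window in the table.

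The guanylate-binding proteins, interferon-induced GTPases that act on intracellular pathogens, had a median of -0.40 over 8 genes of the family and its kin. 6 of 8 were lower at an unadjusted p under 0.05 (3.31% of all genes) and 0 were higher. GBP5 had 40.4, 47.6, 44.5 and 40.5 CPM with chaetocin, against 65.5, 55.2 and 55.0 CPM with F5446 and 56.4 and 52.1 CPM with DMSO. Its chaetocin libraries were all below the F5446 and vehicle libraries (log2 difference -0.46, edgeR adjusted p = 0.32). GBP4 had a log2 difference of -0.40 and GBP2 of -0.50, both without overlap, while GBP1 overlapped at -0.30. The wider list of 76 interferon-stimulated genes had a median of -0.09, with 10 lower and 1 higher at an unadjusted p under 0.05 (3.31% and 2.34% of all genes). OAS2, a sensor of double-stranded RNA, had 58.0, 73.1, 54.2 and 56.7 CPM with chaetocin, against 76.8, 74.0 and 80.2 CPM with F5446 and 92.0 and 94.2 CPM with DMSO. All its chaetocin libraries were below F5446, which was below DMSO (log2 difference -0.37, edgeR adjusted p = 0.559). IRF8, an interferon regulatory factor, was the reverse, at 2, 1.88, 2.59 and 1.05 CPM with chaetocin, against 0.438, 0.443 and 0.445 CPM with F5446 (log2 difference 2.04, edgeR adjusted p = 0.493). Its level was low in all libraries, and the DMSO libraries, at 1.49 and 1.11 CPM, lay within the chaetocin range.

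Cytotoxic effector genes were also mostly lower, with 14 of 19 below 0, a median of -0.25 and 6 lower against 1 higher at an unadjusted p under 0.05 (3.31% and 2.34% of all genes). The list medians by library were 0.03 and -0.10 in DMSO replicates 1 and 4, below all F5446 libraries (0.15 to 0.26). DMSO replicate 4 lay within the chaetocin range (-0.30 to -0.02). GZMA, a granule protease, had 4.57, 7.92, 5.38 and 7.93 CPM with chaetocin, against 19.4, 11.9 and 12.4 CPM with F5446 and 11.4 and 19.4 CPM with DMSO. Every chaetocin library was below every F5446 and DMSO library, and F5446 and DMSO shared 1 range (log2 difference -1.18, edgeR adjusted p = 0.254, and 0.0471 with the replicate number). GNLY, the membrane-lytic granulysin, had 0.522 to 1.19 CPM in the 4 chaetocin libraries and 2.39 to 3.81 CPM in the 3 F5446 libraries, without overlap (log2 difference -1.62, edgeR adjusted p = 0.43). IFNG, which encodes interferon gamma, was near its detection limit, at 0.870, 0.156, 0 and 0.583 CPM with chaetocin against 2.09, 1.14 and 1.39 CPM with F5446. PRF1, perforin, overlapped (log2 difference -0.25, 95% interval -0.51 to 0.02), and EOMES, a transcription factor of cytotoxic cells, was higher at 0.51 (edgeR adjusted p = 0.745). GZMB, another granule protease, was at or near 0, with 0.0435, 0, 0 and 0.466 CPM with chaetocin and 0 CPM in all 3 F5446 libraries. Of natural killer markers 5 of 7 tested genes were higher, with a median of 0.08. Of B cell markers 5 of 6 tested genes were lower, with a median of -0.38 that was -0.35 in numbers 1 and 2 and -0.19 in numbers 3 and 4. MS4A1, which encodes CD20, had 10.7, 11.6, 7.72 and 7.85 CPM with chaetocin, against 15.3, 11.1 and 13.4 CPM with F5446 (log2 difference -0.59, edgeR adjusted p = 0.631). The B cell markers summed to 52.8 to 106 CPM with chaetocin and 70.2 to 94.5 CPM with F5446, with FCRL1 at 0 in every library, and their part in the differences of the immune lists was not tested.

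Among surface genes of T cells, 8 of 9 SLAM family genes were lower (median -0.38), 2 of them at an unadjusted p under 0.05 (3.31% of all genes). SLAMF7 had 1.79 to 3.13 CPM with chaetocin and 3.61 to 4.07 CPM with F5446 (log2 difference -0.78, edgeR adjusted p = 0.769). CD48, the ligand of CD244, had 36.1, 47.7, 65.3 and 56.0 CPM with chaetocin against 86.5, 66.9 and 79.8 CPM with F5446 (log2 difference -0.60, edgeR adjusted p = 0.618). Its groups did not overlap by a narrow margin. Cytokine receptors had a median of -0.03 over 32 genes and 4 lower at an unadjusted p under 0.05 (3.31% of all genes). IL2RB, the beta chain of the interleukin 2 and 15 receptors, had 52.4, 57.8, 66.3 and 43.4 CPM with chaetocin, against 76.3, 95.0 and 73.8 CPM with F5446 and 99.1 and 80.2 CPM with DMSO. All its chaetocin libraries were below both other groups (log2 difference -0.60, edgeR adjusted p = 0.32). IL9R, the interleukin 9 receptor, had 28.1 to 41.9 CPM with chaetocin, 51.3 to 55.9 CPM with F5446 and 40.3 to 41.2 CPM with DMSO (log2 difference -0.62, edgeR adjusted p = 0.162). Here the vehicle libraries lay within the chaetocin range. Of 33 integrin and adhesion genes 23 were lower (median -0.10), 7 lower and 1 higher at an unadjusted p under 0.05 (3.31% and 2.34% of all genes). ITGB8, the integrin beta 8 chain, was higher, at 37.1, 52.6, 31.9 and 30.2 CPM with chaetocin against 27.1, 24.1 and 24.4 CPM with F5446 (log2 difference 0.56, edgeR adjusted p = 0.559). T cell receptor signalling genes had a median of -0.09 over 43 genes, with 5 lower and 1 higher at an unadjusted p under 0.05 (3.31% and 2.34% of all genes). The phosphatase genes DUSP4 and DUSP6, feedback inhibitors of MAP kinases, had differences of -0.38 and -0.41, and DUSP7 of the same family had 0.43.

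No gene was called higher with chaetocin. Among genes of at least 5 CPM whose chaetocin libraries all lay above F5446, SURF2, a nucleolar protein, had the smallest p. It had 45.2, 29.9, 27.7 and 25 CPM with chaetocin, against 23.8, 15.7 and 15.6 CPM with F5446 and 33.0 and 22.7 CPM with DMSO. The lowest chaetocin library was just above the highest F5446 library, and each range held 1 vehicle library (log2 difference 0.71, edgeR adjusted p = 0.217). GNG4, a G protein gamma subunit, had 30.1, 26.0, 23.4 and 28.3 CPM with chaetocin, against 17.7, 13.8 and 21.3 CPM with F5446 and 20.4 and 21.5 CPM with DMSO (log2 difference 0.62, edgeR adjusted p = 0.419). Its vehicle libraries lay near the top of the F5446 range. The other 8 genes of this kind were ANTXR1, ACTA2, DUSP7, USP36, NT5DC2, ITGB8, CYTH2 and UBAP2L, with log2 differences from 0.36 to 0.80. ACTA2, smooth muscle actin, had 741, 693, 869 and 694 CPM with chaetocin, against 583, 552 and 523 CPM with F5446. The summed fibroblast markers, given above, overlapped between the compounds, and their part in this difference was not tested. Of the named genes 3 had counts with 1 compound only. TNFSF18, the ligand of the costimulatory receptor GITR, had 8, 32, 12 and 5 counts with chaetocin and 0 in every F5446 and DMSO library. Against a floor of 3 counts over the F5446 group it was 14.5-fold higher (edgeR adjusted p = 0.805). STK31, a germline kinase gene, had 0 counts in the 4 chaetocin libraries and 29, 4 and 22 with F5446. Its DMSO libraries had 0 and 2 counts. Against the same floor over the chaetocin group STK31 was 24.0-fold lower with chaetocin (edgeR adjusted p = 0.677). ALDH1L2, a mitochondrial folate enzyme, had 0 counts with chaetocin and 11, 9 and 0 with F5446. Against that floor ALDH1L2 was 8.72-fold lower with chaetocin (edgeR adjusted p = 0.745). The floor takes no account of the spread between libraries, so these folds are not lower bounds.

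No transcript of the enzymes that these compounds address was called, which does not show that they were equal. The signs of several turned between fits, as given in the last section. SUV39H1 had 33.9, 44.1, 32.7 and 41.9 CPM with chaetocin, against 35.7, 47.7 and 45.0 CPM with F5446 and 34.4 and 40.9 CPM with DMSO. The groups overlapped, and the log2 difference was -0.13 (95% interval -0.41 to 0.16). The intervals were -0.04 to 0.56 for SUV39H2, -0.20 to 0.33 for EHMT1, -0.32 to 0.25 for EHMT2 and -0.45 to 0.04 for SETDB1, the other H3 lysine 9 methyltransferases named here. For thioredoxin (TXN) the interval was -0.22 to 0.37 and for its reductase (TXNRD1) -0.18 to 0.26. Of 23 genes of H3 lysine 9 methylation 0 had an unadjusted p under 0.05, with a median of -0.01. Of all genes 3.31% were lower and 2.34% higher at that threshold, so a count of 0 in so short a list says little. Medians were -0.01 over 18 histone deacetylases and 0.04 over 31 polycomb genes. Metallothionein and metal response genes were lower in 6 of 7 (median -0.50), with 1 lower at an unadjusted p under 0.05 (3.31% of all genes). MT2A among them was 0.08 in replicate numbers 1 and 2 and -0.77 in numbers 3 and 4.

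Growth-related lists differed by small amounts. Ribosome biogenesis genes were higher in 51 of 69 (median 0.10), with 9 higher and 0 lower at an unadjusted p under 0.05 (2.34% and 3.31% of all genes). The median was 0.10 within numbers 1 and 2 and 0.09 within 3 and 4. By library the list medians overlapped, at 0.26, 0.12, -0.08 and -0.08 in chaetocin replicates 1 to 4. They were 0.09, -0.12 and -0.19 in F5446 replicates 2, 3 and 4. NCL, nucleolin, had 3753, 3232, 3783 and 3514 CPM with chaetocin, against 3152, 3027 and 2851 CPM with F5446 and 3608 and 3201 CPM with DMSO. The chaetocin and vehicle libraries shared 1 range above F5446 (log2 difference 0.24, edgeR adjusted p = 0.811). Replication-dependent histone genes were higher in 41 of 58 (median 0.11), with 10 higher and 0 lower at an unadjusted p under 0.05 (2.34% and 3.31% of all genes). Their median was 0.038 without chaetocin replicate 3 and 0.034 in numbers 1 and 2. HIST1H2AM had 722 CPM in chaetocin replicate 3, the library that stands apart, and 408 to 459 CPM in the other chaetocin libraries, against 337 to 399 CPM with F5446. Mitosis and spindle genes were lower in 50 of 63 (median -0.07), with 6 lower and 0 higher at an unadjusted p under 0.05 (3.31% and 2.34% of all genes). CCNA2, cyclin A2, had a difference of -0.33. The library medians of the histone and mitosis lists also overlapped between the compounds.

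All 13 mitochondrially encoded genes were higher with chaetocin (median 0.74), and 0 had an unadjusted p under 0.05 (3.31% of all genes lower, 2.34% higher). Their median deviation was 0.43, 0.15, 1.13 and -0.53 in chaetocin replicates 1 to 4, against 0.06, -0.85 and -0.40 in F5446 replicates 2, 3 and 4, so the groups overlapped and chaetocin replicate 3 was highest. The list median was 0.21 within numbers 1 and 2 and 1.12 within 3 and 4, and it was 0.17 without chaetocin replicate 3. Nuclear oxidative phosphorylation genes had a median of 0.10 over 75 genes that was -0.33 in numbers 1 and 2 and 0.46 in numbers 3 and 4. Cytosolic ribosomal protein genes had 0.06 over 83 genes, with -0.38 and 0.35 in the same sets. For the oxidative phosphorylation and ribosomal protein lists the sign turned with the set of replicate numbers, while class I, guanylate-binding, cytotoxic and SLAM genes were negative in both. The SLAM medians by library overlapped, though, with 0.10 in chaetocin replicate 3 above 0.05 in F5446 replicate 4.

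**Figure D4:**
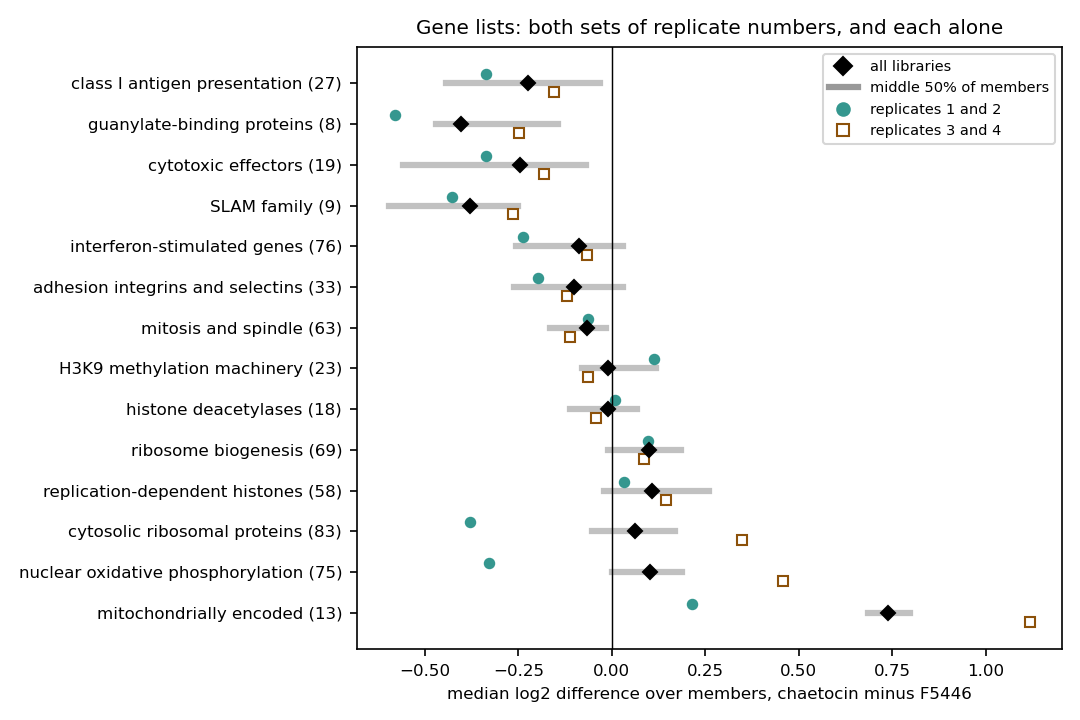
Median log2 difference, chaetocin minus F5446 (horizontal axis), over the tested members of each list, whose number stands in brackets. Diamonds are the fit of all libraries, grey bars the middle 50% of members, filled circles replicate numbers 1 and 2 alone and open squares numbers 3 and 4 alone. The class I, guanylate-binding, cytotoxic and SLAM lists are negative in both sets, while oxidative phosphorylation runs from -0.33 to 0.46.

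**Figure D5:**
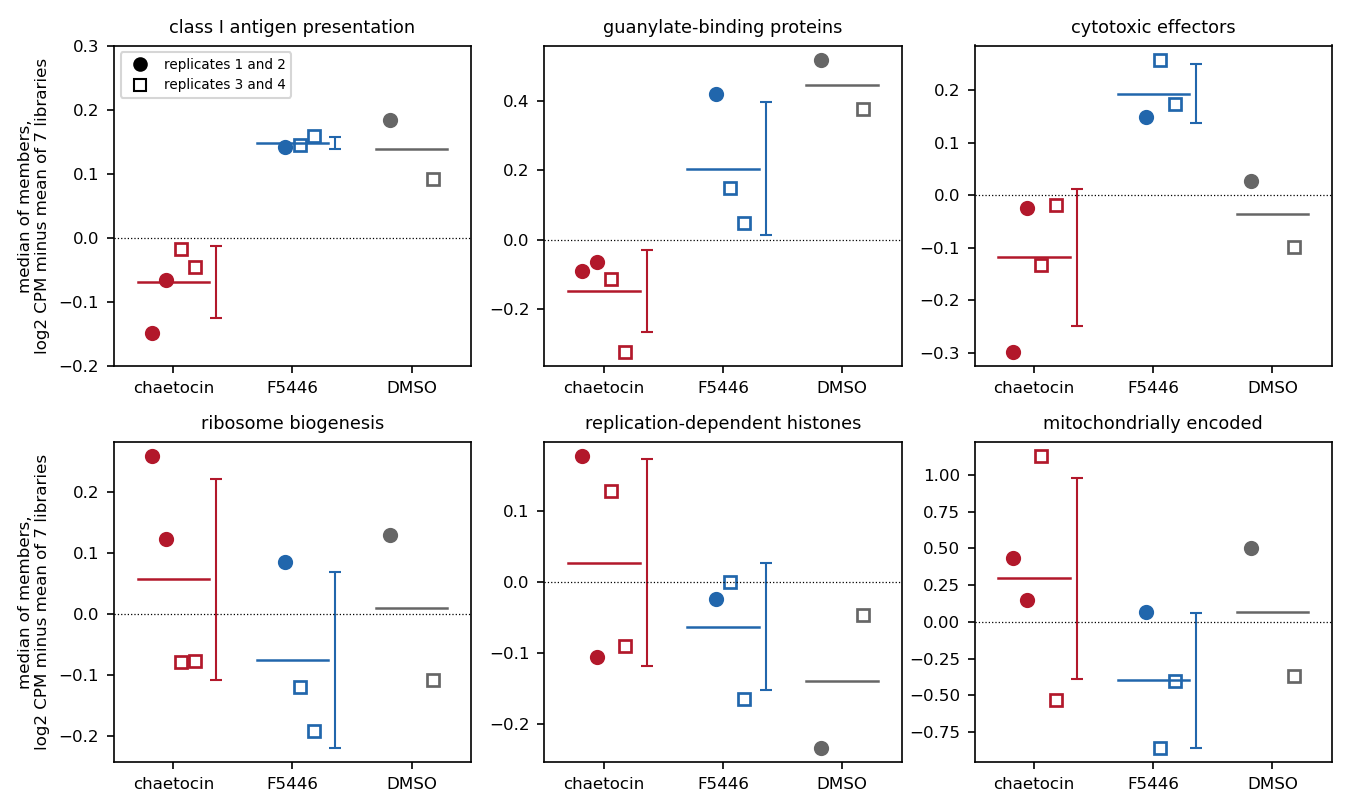
Median over list members of log2 CPM minus its mean over the 7 libraries (vertical axis), with chaetocin left of F5446 and DMSO. Symbols are as in the plot of the 4 genes by library. The class I medians of the chaetocin libraries (-0.15 to -0.02) lie below those of F5446 (0.14 to 0.16) and of DMSO (0.09 and 0.18), while the mitochondrially encoded medians overlap.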

How the data were processed

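RNA sequencing counts of HuT78 cells were used as deposited. Per the labels' protocols, RNA was purified on columns with DNase and libraries were made with a kit meant for degraded human RNA. The authors deposited raw counts per gene, and the submitters' processing notes name bcl2fastq 2.20.0.422, cutadapt 1.8.1, HTSeq 0.6.1 and the build hg19. The aligner, annotation release and strand setting were not given in the sources used here. Overlapping and antisense genes therefore cannot be separated.

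Counts of all 13 libraries were filtered by group with the edgeR rule and fitted with edgeR 4.0.16 in R 4.3.3 (TMM, robust quasi-likelihood, two-sided, Benjamini-Hochberg over 17252 genes, threshold 0.05). Terms were the group and replicate numbers 1 and 2 against 3 and 4, and the contrast was chaetocin minus F5446. The groups, this term, the gene lists and the naming rule were chosen with earlier results of these data known, and lists of histone, protocadherin, mitochondrial ribosomal protein and ZNF genes by name were added with the files in view. Named genes were those called, the 10 in each direction with the smallest p among genes of at least 5 CPM without overlap, up to 3 per list with an unadjusted p under 0.05, and 7 genes of the compounds' targets; some are given only in counts, and 1 called gene is not reported here. Intervals of 95% combine spread between libraries and counting error.

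Same-numbered chaetocin and F5446 libraries, paired by the numbers in their titles, deviated together (correlations of 0.41, 0.17 and 0.36 for numbers 2, 3 and 4 over genes of at least 5 CPM; 0.38, 0.15 and 0.28 for differently numbered libraries of the same set of numbers), so the fit with the number as a block is given where it changes a call. Alternatives were DESeq2 1.42.0, limma-voom (limma 3.58.1), other scalings and filters, subsets of libraries and each library left out. Promoter windows came from RefSeq. The fit was tested on simulated data. Figures were drawn with matplotlib 3.10.9.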

Additional observations from a re-analysis of the deposited data

Results flagged for a closer look

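Among the 4 chaetocin libraries, 1 library stood far from the other 3 for 7 of the 116 named genes by Dixon's test, and chance flags about 1 in 20 such groups. In chaetocin replicate 3, BAK1 was low at 18.4 CPM, where the other 3 libraries had 23.9 to 24.4 CPM. EIF4EBP1 was high there at 53.0 CPM, HIST1H2AM at 722 CPM and ZNF829 at 44.3 CPM. Replicate 3 is also the library with the largest share of mitochondrially encoded counts, and the part of that in these values was not tested. GBP2 was at 12.7 CPM in chaetocin replicate 4, RASGRP1 at 37.5 CPM in replicate 1, and ADM at 0.0626 CPM in replicate 2 with 0 CPM in the other 3.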

How the results depend on the processing

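The count of 5 genes called became 0 with no term for replicate numbers, 0 in a fit of the 7 libraries only (885 at an unadjusted p under 0.05), 0 in numbers 1 and 2 alone, 28 in numbers 3 and 4 alone (4 lower, 24 higher), 16 with DESeq2, 41 with no filter, 3 with a filter at 5 CPM and 11 with the replicate block, which changed no other call. It ran from 1 to 9 with each library left out: 1 without F5446 replicate 2, 2 without F5446 replicate 4, 3 without chaetocin replicate 1 and 9 without chaetocin replicate 2. It was 4 or 5 with limma-voom, other scalings, a non-robust fit and without mitochondrially encoded genes, and 6 with the replicate block and without chaetocin replicate 3, an alternative added after the data were seen. STX3, SLFN5, ITGB7 and RNF144A kept their direction in every alternative. RNF144A was above the threshold with limma-voom (adjusted p = 0.0542), with the non-robust edgeR fit (adjusted p = 0.0603) and with the block and without chaetocin replicate 3 (edgeR adjusted p = 0.073), and ITGB7 and RNF144A were above it with the 5 CPM filter (edgeR adjusted p = 0.056 and 0.0605). Signs turned for genes with no call: in numbers 1 and 2 alone MT2A had a log2 difference of 0.081, ADM 2.94, GABARAPL1 0.24, SUV39H1 0.11, EHMT1 -0.092, EHMT2 0.17 and TXN -0.30, and in numbers 3 and 4 alone TXNRD1 had -0.11. EHMT2 was 0.0026 with no term. With the block and without chaetocin replicate 3, SUV39H1 was 0.031, EHMT1 -0.024, EHMT2 0.11 and TXN -0.15. With each library left out EHMT1 ran from -0.0090 to 0.15, EHMT2 from -0.11 to 0.13, TXN from -0.13 to 0.22 and TXNRD1 from -0.026 to 0.16. The cause of these changes was not tested. Differences under a log2 of about 0.5 are below what this design resolves for many genes.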
